A study of Schizosaccharomyces pombe with 23 samples.

Results

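Away from the inserted barrier, replication of the WT genome was compared between strains that make the barrier protein Rtf1 (RFB ON) and strains that lack its gene (RFB OFF). The members were chosen by genotype: all WT libraries deep enough to use, which were 5 of the 23 libraries of the series, and all 41909 bins of 300 bp except the 234 from 834901 to 905100 of chromosome II, where the barrier lies. RFB ON strains carried *rtf1* under the *ADH1* promoter (Nat:ADH1:rtf1) and RFB OFF strains carried a deletion (rtf1::Nat). A Pol δ strain (cdc6-L591G) and a Pol ε strain (cdc20-M630F) of each were grown in YE at 30 °C, and all of them shared the markers ura4-D18, ade6-704 and leu1-32, the alleles rnh201-RED:Kan and RTS1::phleo, and Rura-ChrII. There were 1 Pol δ and 1 Pol ε library of RFB ON, and 1 Pol δ and 2 Pol ε libraries of RFB OFF. Each library belongs to a strain of its own, so strains are the units of the p-values. In the test of windows, the spread between strains comes from the 2 RFB OFF Pol ε strains alone. The spread between Pol δ strains or between RFB ON strains of WT was not measured. Strains of RFB ON and OFF differ in sequence at the *rtf1* locus itself. RFB ON has no replicate of either polymerase, and its own errors cover counting only.

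Pu-Seq maps ribonucleotides left in the DNA by mutant polymerases. Pol ε synthesizes most of the leading strand and Pol δ most of the lagging strand, so the polymerase found on each strand reports the direction in which a fork crossed that position. Forks start at origins and end where converging forks merge. In fission yeast, origins are AT-rich stretches between genes, each used in only a part of the cells. Rtf1 binds the *RTS1* sequence, which natively lies next to *mat1* in the mating-type region, and stops forks that arrive from one side.

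The share of rightward forks in a window is the mean of the Pol ε usage on the Watson strand and the Pol δ usage on the Crick strand. It is 1 where all forks move right and 0 where all move left. The efficiency of an origin is the rise of this share from the 3 kb on its left to the 3 kb on its right. To show what origins of these libraries look like in sequence, 240 bases of the ASM294v3 assembly (RefSeq, plus strand) are given for 3 of the most efficient origins on chromosome I, each within a stretch between protein-coding genes. Runs of 6 or more A or T are in capitals.
Origin at 4087950, chrI:4087831-4088070, between mnl1 and tsc3: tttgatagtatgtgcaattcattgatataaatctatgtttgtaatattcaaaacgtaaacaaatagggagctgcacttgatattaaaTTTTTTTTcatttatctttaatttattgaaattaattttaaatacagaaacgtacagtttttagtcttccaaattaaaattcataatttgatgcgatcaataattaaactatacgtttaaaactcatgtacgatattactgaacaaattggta
Origin at 3952650, chrI:3952602-3952841, between saf2 and lsk1: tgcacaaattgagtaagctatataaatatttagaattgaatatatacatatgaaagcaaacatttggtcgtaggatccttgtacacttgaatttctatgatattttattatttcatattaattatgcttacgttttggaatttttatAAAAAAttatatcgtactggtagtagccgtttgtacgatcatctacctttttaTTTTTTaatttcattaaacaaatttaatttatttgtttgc
Origin at 3634950, chrI:3634831-3635070, between noc201 and ctr5: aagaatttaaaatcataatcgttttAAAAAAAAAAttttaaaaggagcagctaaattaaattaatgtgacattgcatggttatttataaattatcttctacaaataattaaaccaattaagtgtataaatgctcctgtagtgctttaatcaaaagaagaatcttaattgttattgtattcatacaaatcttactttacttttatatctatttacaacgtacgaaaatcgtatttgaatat
These stretches were 77.1%, 76.3% and 78.3% A and T. The fourth sequence is shown because fork direction changed there between RFB ON and OFF (site 3 of the steps described further on). It lies between *ura1*, which encodes an enzyme of pyrimidine synthesis, and *ime4*, and is 63.8% A and T.
Site 3 at 746400, chrI:746281-746520, between ura1 and ime4: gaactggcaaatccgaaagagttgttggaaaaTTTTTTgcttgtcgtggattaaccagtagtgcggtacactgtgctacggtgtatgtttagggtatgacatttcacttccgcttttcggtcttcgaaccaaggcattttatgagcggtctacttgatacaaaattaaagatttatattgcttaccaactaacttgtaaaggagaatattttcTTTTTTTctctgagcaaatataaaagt

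The libraries held between 6505386 (RFB ON Pol δ) and 17765156 (RFB ON Pol ε) counts. A window of 10 bins (3 kb) held a median of 1391 counts in the RFB ON Pol δ library and of 3089 to 4039 in the other libraries. Counts on *rtf1* (SPAC22F8.07C, chromosome I, 4797195 to 4799127), relative to its flanks, were between 4.99% and 6.87% of the RFB ON level of the same polymerase in the 3 RFB OFF libraries. The 2 RFB OFF Pol ε libraries differed by more than sampling noise (chi-square per degree of freedom 1.92) and were kept as 2 replicates. They served as a yardstick, each combined with the RFB OFF Pol δ library. That shared library makes the yardstick narrower than a full replicate would be.

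Fork direction was nearly the same in RFB ON and RFB OFF over the genome. Over 4166 windows, the Pearson correlation across windows was 0.997, against 0.999 between the RFB OFF replicates (windows are not independent replicates). The difference between RFB ON and OFF had a mean of 0.000302, an SD of 0.0204 and a median size of 0.0134. Between the RFB OFF replicates, the SD was 0.00819 and the median size 0.00517. The median counting error of a difference was 0.00852, and 885 windows (21.2%) differed by more than 3 times their own. The yardstick exchanges only a Pol ε library. With only Pol ε exchanged between RFB ON and OFF the SD was 0.0120, and with only Pol δ exchanged it was 0.0133. The spread between RFB ON and OFF was thus wider than counting error and than that of the yardstick.

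**Figure D1:**
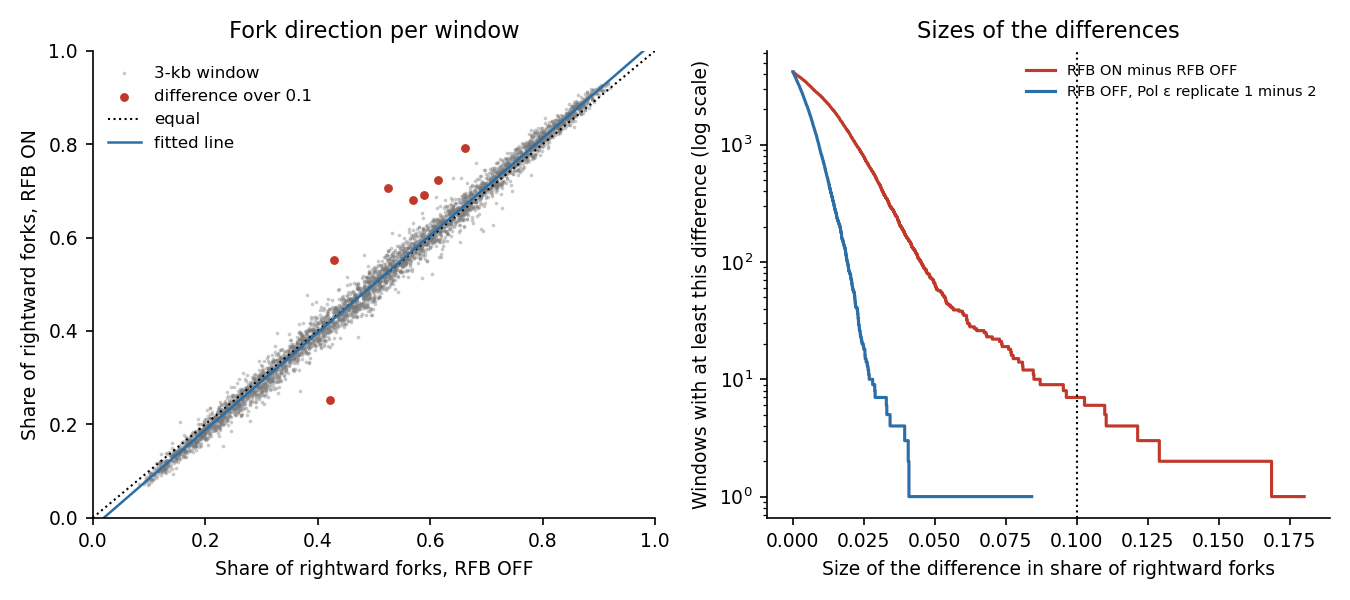
Left, share of rightward forks (0 to 1) per 3-kb window in RFB ON against RFB OFF, for 4166 windows; red points are the 7 windows that differed by over 0.1, the dotted line marks equal values and the blue line has a slope of 1.04. Right, number of windows (log scale) whose difference reached the size on the x axis, for RFB ON minus OFF (red) and for the RFB OFF Pol ε replicates (blue), where no window passed 0.1.

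A small part of this spread followed fork direction itself. The line of RFB ON on RFB OFF had a slope of 1.04 (two-sided exact permutation p = 0.167, the smallest that the 6 arrangements of the labels allow, so this design cannot reach 0.05). Between the RFB OFF replicates the slope was 0.996. Windows replicated mostly leftward (share under 0.2, 410 windows) went from a mean of 0.160 in RFB OFF to 0.145 in RFB ON, and only 34 of them were higher in RFB ON. Windows replicated mostly rightward (over 0.8, 421 windows) went from 0.841 to 0.856, and 387 of them were higher in RFB ON. The 1178 windows of mixed direction (0.4 to 0.6) had means of 0.501 and 0.501. Forks in RFB ON therefore appeared slightly more uniform in direction on both sides. The single libraries moved with this: the SD of the Watson share over windows was 0.210 in the RFB OFF and 0.218 in the RFB ON Pol δ library, and 0.226 and 0.227 in the RFB OFF and 0.237 in the RFB ON Pol ε libraries. The part of this library property in the slope was not tested.

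The 3 chromosomes were alike in these values. The SD of the difference was 0.0205 on chromosome I, 0.0211 on chromosome II and 0.0190 on chromosome III, and the correlations across windows were 0.997, 0.996 and 0.998. The mean share of rightward forks lay between 0.498 and 0.501 on each chromosome in both conditions.

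Only 7 windows, 0.168% of those measured, differed by more than 0.1 in fork direction. No window did so between the RFB OFF replicates, where the highest difference was 0.0841. That pair exchanges only a Pol ε library. With only Pol ε exchanged between RFB ON and OFF, 0 windows passed 0.1 and the highest difference was 0.0826. With only Pol δ exchanged, 2 windows passed it, and Pol δ has no replicate in either condition. In 6 of the 7 windows past 0.1 with both exchanged, rightward forks were more frequent in RFB ON. The change with the greatest size lay on chromosome II from 1761001 to 1764000 (positions are those of the deposited files), where the share rose from 0.526 (0.529 and 0.523 with each RFB OFF Pol ε replicate) to 0.706. Its left neighbour, from 1758001, rose from 0.663 to 0.792. On chromosome I, the window from 744001 rose from 0.430 (0.428 and 0.432) to 0.551 and the window from 741001 rose from 0.570 to 0.681. The window from 3141001 of chromosome II rose from 0.613 to 0.723. In each of these 5 windows RFB ON lay outside both RFB OFF values, by at least 0.1. Choosing windows past 0.1 largely set this in advance, because both values share the RFB OFF Pol δ library.

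The window from 1479001 of chromosome I, over *met26*, depended on 1 library. Its share was 0.691 in RFB ON, but 0.553 and 0.637 with the RFB OFF Pol ε replicates 1 and 2, so most of its difference was also found between replicates.

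The only fall over 0.1 lay beside *rtf1*. In the window from 4800001 to 4803000 of chromosome I, on *sec24*, which encodes a COPII coat protein, the share of rightward forks went from 0.421 (0.424 and 0.419) to 0.253. The window over *rtf1* itself, from 4797001, went from 0.472 to 0.387. The window from 4797001 holds the gene, which RFB OFF lacks and RFB ON has behind another promoter. The window from 4800001 starts to the right of the gene, which ends at 4799127 in the reference. An origin inside that window, at 4802850, went from an efficiency of 0.277 in RFB OFF to 0.362 in RFB ON. The part of the sequence difference in the fall beside the gene was not tested. Within 15 kb of *rtf1*, 5 of 9 windows passed the test described next on at least 1 strand, against 13.3% of all windows. The other falls listed by size were at 228001 of chromosome III (0.368 to 0.272), 4482001 of chromosome II (0.711 to 0.627) and 1596001 of chromosome I (0.603 to 0.522).

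Counts per window and strand were then tested for an interaction of polymerase and *rtf1*, which asks whether Pol δ and Pol ε shifted against each other (edgeR's quasi-likelihood test, Benjamini-Hochberg adjustment over 8332 window-strands, threshold 0.05). The test called 602 of them (7.23%), 332 with relatively more Pol δ in RFB ON (3.98%) and 270 with relatively less (3.24%). With DESeq2 size factors in place of TMM, edgeR called 580, split into 445 and 135, so the balance of directions depends on the scaling. The residual spread of the fit rests on 1 degree of freedom, that of the RFB OFF Pol ε pair. With all 20 deep libraries of the series in the fit it called 0, with 22 at an unadjusted p under 0.05. That fit grouped libraries by label, and the *rpn10Δ* RFB ON Pol ε group held libraries of unlike strand pattern (slopes of the Watson share on fork direction of -0.209, -0.169 and 0.912) and, like the Pol δ group, 1 library with few *rtf1* counts (8.86% and 7.68% of WT RFB ON). The part of these groups in the count of 0 was not tested. DESeq2's test of the 5 WT libraries called 11.

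A change of fork direction moves both strands, in opposite directions. Of 4166 windows, 555 (13.3%) were called on at least 1 strand but only 41 (0.984%) on both strands in opposite directions, with 6 called on both in the same direction. Of the 41, 21 were replicated more rightward in RFB ON and 20 more leftward. The median size of their difference in fork direction was 0.0614, against 0.0134 over all windows, a greater size that follows from how they were selected. Single-strand calls thus outnumbered changes seen on both strands.

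The log2 interactions of the greatest size belonged largely to windows already described. On the Watson strand they were -1.34 (edgeR adjusted p = 1.02e-07) at 1761001 and -1.04 (adjusted p = 4.06e-06) at 1758001 of chromosome II. At 4800001 of chromosome I, beside *rtf1*, they were 0.99 on Watson (adjusted p = 3.45e-07) and -1.23 on Crick (adjusted p = 1.02e-07). On the Crick strand of chromosome II they were 0.88 at 1761001 and 0.97 at 1755001. Windows called on the Watson strand alone were among them. At 3297001 of chromosome I, over *eme1*, which encodes a subunit of a junction-cutting nuclease, Watson had 1.16 (edgeR adjusted p = 1.20e-06) while the share of rightward forks went from 0.143 to 0.0948. At 3987001, over *pfl2*, Watson had 1.02 (edgeR adjusted p = 0.000591) with shares of 0.114 and 0.0893. Both windows were replicated mostly leftward in both conditions.

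Origins were called on the mean of the RFB ON and OFF profiles as local peaks of at least 0.15 in efficiency, which gave 469. Of these 214 were efficient (0.5 or more), 112 intermediate (0.3 to 0.5) and 143 weak. Called on each profile alone, RFB ON had 475 origins and RFB OFF 467. Within 3 kb, 457 of each were found in the other, which was 96.2% of the RFB ON and 97.9% of the RFB OFF set. Between the RFB OFF replicates, 453 of 466 (97.2%) and 453 of 463 (97.8%) were matched. The peak lay in the same bin in RFB ON and OFF for 328 of the 469 origins, and within 1 bin for 456.

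Most origins called in 1 condition only lay near the threshold or a neighbouring peak in the other. Of the 18 in RFB ON alone, the one with the highest efficiency, 0.532 at 3410850 of chromosome I, had 0.487 at the same bin in RFB OFF, whose own peak lay further than 3 kb away. Of the 10 in RFB OFF alone, the highest, 0.434 at 3882150 of chromosome I, had 0.398 in RFB ON. Among the others, an origin at 1235550 of chromosome II had 0.175 in RFB ON and 0.128 in RFB OFF, and one at 4516350 had 0.196 and 0.135. The origin at 1595250 of chromosome I had 0.153 in RFB OFF and 0.0761 in RFB ON.

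**Figure D2:**
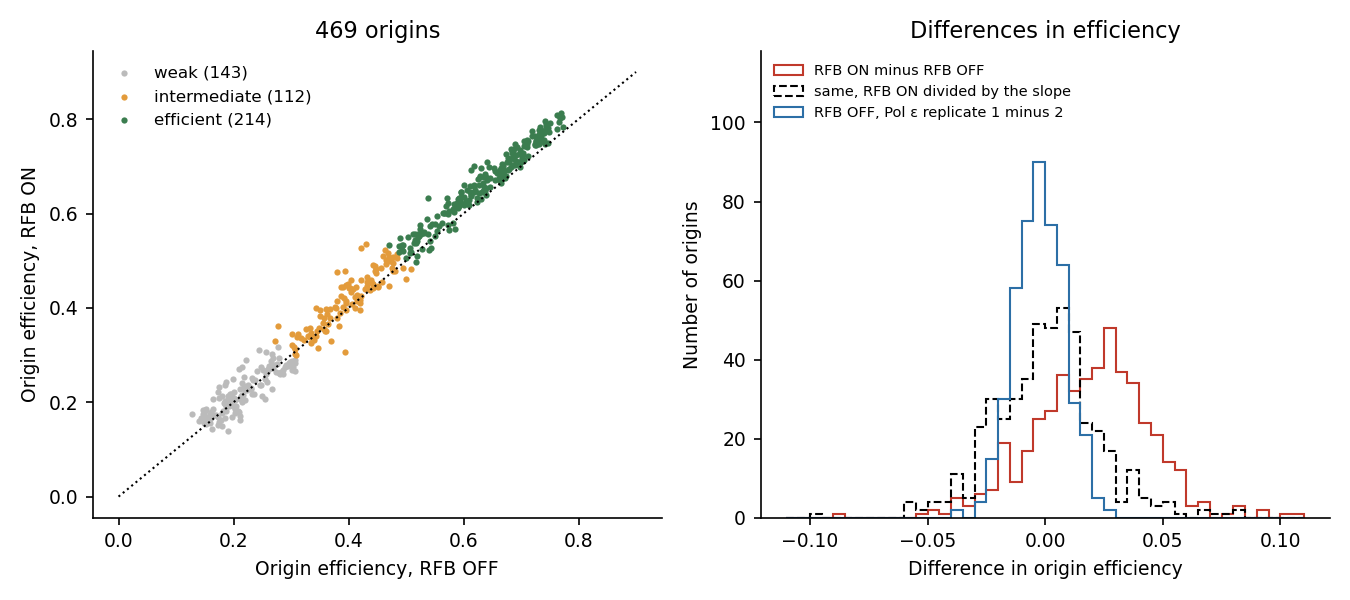
Left, efficiency (rise in the share of rightward forks, 0 to 1) of each of 469 origins in RFB ON against RFB OFF, coloured by class, with equal values on the dotted line. Right, histogram of the difference in efficiency for RFB ON minus OFF (red), the same after dividing RFB ON by the slope of 1.04 (dashed) and the RFB OFF Pol ε replicates (blue); the red histogram is centred near 0.0207 and the other histograms near 0.

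Origin efficiency was slightly higher in RFB ON. The median over the 469 origins was 0.457 in RFB OFF and 0.482 in RFB ON, with a median difference of 0.0207 and an SD over origins of 0.0250. Efficiency was higher in RFB ON at 373 origins. The RFB OFF replicates differed by a median of -0.00211 with an SD of 0.0105. The two-sided exact permutation p was 0.167, again the smallest that 6 arrangements allow. The difference grew with efficiency: its median was 0.0295 for efficient, 0.0190 for intermediate and 0.00608 for weak origins. As a ratio of RFB ON to OFF, the medians were 1.05, 1.04 and 1.03. Dividing RFB ON by the slope of the genome-wide line left a median difference of 0.000802 with an SD of 0.0225. That line was fitted to the same shares from which efficiency is computed, so a remainder near 0 was largely set in advance. In proportion, the shift in efficiency was about as large as the slope. The part of the strand asymmetry of the libraries in it was not tested.

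The 10 most efficient origins had efficiencies between 0.742 and 0.773 in RFB OFF and between 0.778 and 0.812 in RFB ON, and each was higher in RFB ON. The 3 whose sequence is printed above had 0.770, 0.768 and 0.767 in RFB OFF and 0.812, 0.803 and 0.793 in RFB ON. Counting errors of these differences were 0.00788 to 0.00820. Of the 10 origins, 9 peaked in the same bin in both conditions and the one at 3952650 moved by 1 bin.

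Single origins that gained or lost efficiency were few. The gain was over 0.1 at 2 of 469 origins and at none between the RFB OFF replicates, and no loss reached that size. The origin at 1459650 of chromosome II gained most, from 0.422 to 0.528, and that at 1752150 went from 0.430 to 0.535. The latter lies 13.05 kb left of site 1, described further on. On chromosome I, the origin at 4450350, between *ypt2*, which encodes a Rab GTPase, and *rad26*, which encodes a checkpoint protein, went from 0.381 to 0.475. The origins at 1268550 of chromosome II and 252450 of chromosome III went from 0.539 to 0.632 and from 0.394 to 0.479. All 5 gains exceeded 7 times their counting error, but they were picked as the greatest of 469 origins. Counting error leaves out the spread between strains, which RFB ON has no replicate to measure.

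All but 1 of the 5 losses of the greatest size lay near 1 chromosome end. At 4470450 of chromosome II, efficiency went from 0.394 to 0.307. At 4479750, 4493250 and 4523550 it went from 0.190 to 0.139, from 0.254 to 0.207 and from 0.306 to 0.265. The remaining loss, from 0.211 to 0.162, was at 2667750 of chromosome I, between *hxk2*, which encodes a hexokinase, and *mrps12*. In the last 100 kb of the right end of chromosome II, 5 of 7 origins were lower in RFB ON, with a median difference of -0.0411, whereas the RFB OFF replicates differed there by -0.0211 to 0.0126. In the other 5 chromosome ends the medians lay between -0.0128 (right end of chromosome I, 2 origins) and 0.0260 (left end of chromosome I, 8 origins).

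Sequence, which the calling of origins did not use, differed on average between the classes, whose values overlapped. On chromosome I, the central 900 bases were 72.6 ± 2.19% A and T (SD over 90 origins) at efficient, 70.6 ± 3.11% (57) at intermediate and 69.0 ± 2.85% (46) at weak origins, against 63.9 ± 3.96% over 18594 bins. The centre lay outside protein-coding genes at 95.6%, 93.0% and 80.4% of them, against 21.1% of all bins. AAAAAA or TTTTTT, which are the same motif on opposite strands, was found in the central 240 bases of 92.2%, 77.2% and 69.6% of the origins and of 47.4% of all bins. These are descriptions of position and base composition, and a run of A or T is not a binding site.

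The points where converging forks merged were compared in the intervals between neighbouring origins. Of 465 intervals, 348 had a single merging point in both conditions, the position where the share of rightward forks smoothed over 11 bins fell through 0.5. The median shift from RFB OFF to RFB ON was 0.0173 kb to the right (two-sided exact permutation p = 0.5, smallest possible 0.167), and 183 points moved right. The median size of the shift was 0.239 kb, below the length of a bin, and 92.8% moved by at most 1 kb. Between the RFB OFF replicates, the median size was 0.116 kb and 99.7% moved by at most 1 kb. No point moved by over 3 kb. The shift of the greatest size was -2.66 kb, to the left, from 3864.3 kb of chromosome I. The next were 2.25 kb from 3131.8 kb and 2.18 kb from 1763.0 kb of chromosome II, and 2.15 kb from 743.9 kb of chromosome I, all to the right.

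The sharpness of the changes was then examined at the resolution of bins, a search that was added after the values had been seen and carries no test. At each bin border, the step in the share of rightward forks from the 7 bins (2.1 kb) on the left to the 7 bins on the right was compared between RFB ON and OFF. Over 41623 positions the difference of steps had an SD of 0.0241, against 0.0127 between the RFB OFF replicates. It passed 0.1 in size at 15 separate sites, against 1 between the replicates, which lay over *met26*. At 5 of the 15, direction fell across the site in RFB ON while RFB OFF had no step of 0.1, and these are called sites 1 to 5. The others comprised a step within *rtf1*, a step over *met26*, 2 places where a step of RFB OFF was below 0.01 in RFB ON, and 6 rises of RFB OFF that were greater in RFB ON. Without RFB OFF Pol ε replicate 1 or 2, falls of this kind numbered 7 and 9, the same 5 sites included.

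Site 1 lay at 1765.2 kb of chromosome II. In RFB OFF, 0.414 of forks moved right on its left flank and 0.371 on its right flank. In RFB ON, the left flank had 0.622 and the right flank 0.356. The change lay on the left side, with leftward forks at similar shares on the right of the site in both conditions and less frequent on its left in RFB ON. The difference of steps was -0.223, and -0.227 and -0.220 with each RFB OFF Pol ε replicate. The nearest origin to the right was 3.15 kb away, and its efficiency was 0.282 in RFB OFF and 0.264 in RFB ON.

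Sites 2 and 3 had the same form. At site 2, at 3145.5 kb of chromosome II, the left flank went from 0.542 to 0.670 and the right flank from 0.525 to 0.495. At site 3, at 746.4 kb of chromosome I between *ura1* and *ime4*, the left flank went from 0.441 to 0.582 while the right flank had 0.355 and 0.357. The differences of steps were -0.157 and -0.139, with -0.162 and -0.152 and with -0.133 and -0.146 for the RFB OFF replicates. Both polymerases moved at these 3 sites. For example, at site 3 the Watson share of the left flank was 0.607 in the RFB OFF and 0.424 in the RFB ON Pol δ library, and 0.488 and 0.491 in the RFB OFF and 0.591 in the RFB ON Pol ε libraries.

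Sites 4 and 5 were shallower. At site 4, at 348.0 kb of chromosome III, the flanks were 0.480 and 0.453 in RFB OFF and 0.533 and 0.386 in RFB ON. At site 5, at 3355.5 kb of chromosome I over the gene *cnt6*, they were 0.553 and 0.536 in RFB OFF and 0.640 and 0.517 in RFB ON. With flanks of 10 bins, sites 1 to 3 passed the same limit and sites 4 and 5 did not. With flanks of 5 bins, 4 of the 5 passed it.

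**Figure D3:**
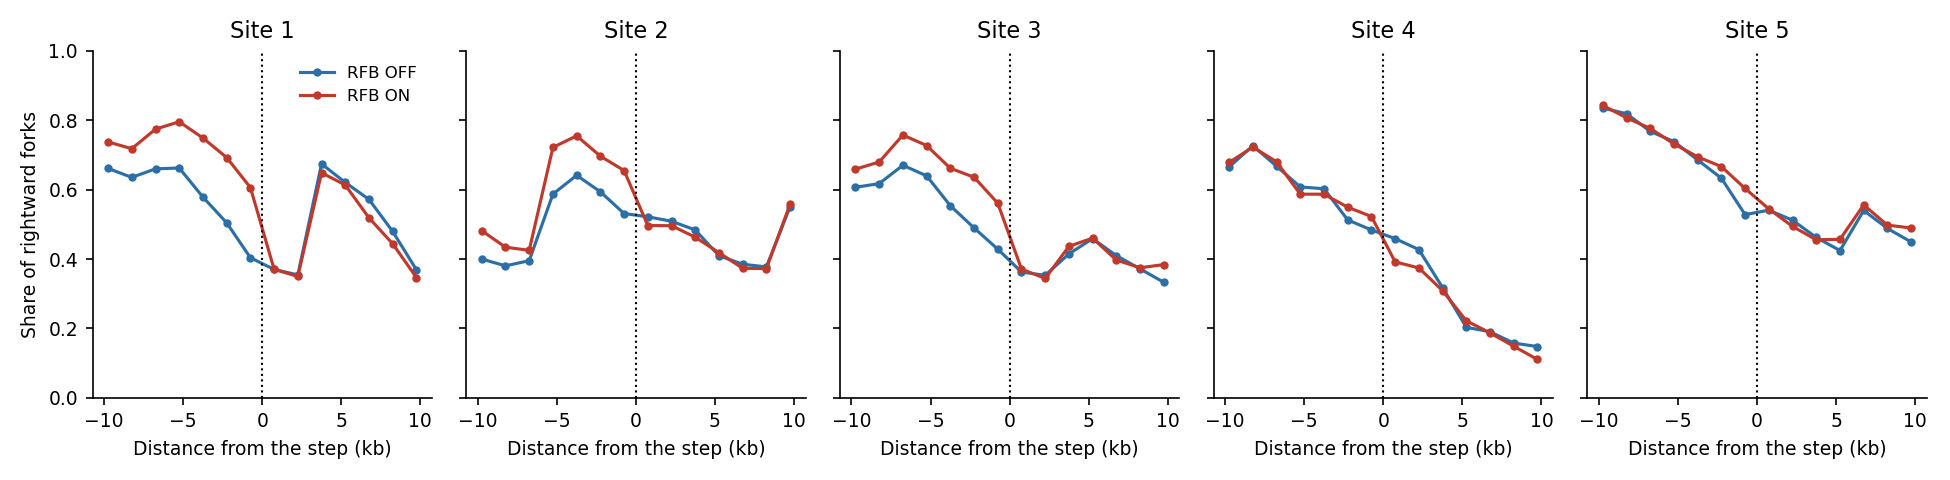
Share of rightward forks (0 to 1) in groups of 5 bins against the distance from the step (kb) at sites 1 to 5, for RFB OFF (blue) and RFB ON (red). At sites 1 to 3 the red line lies above the blue line up to the dotted line and meets it to the right, with left flanks of 0.622, 0.670 and 0.582 in RFB ON.

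Mutant libraries, which had no part in finding these sites, were read there as the Watson share of single Pol δ libraries. The 7 bins left of each site were read, and this flank was chosen after its values had been seen. A lower Watson share in a Pol δ library stands for fewer leftward forks. At site 1 it was 0.502 in WT RFB OFF and 0.273 in WT RFB ON. In *nup132Δ*, which lacks a nucleoporin, the RFB OFF library had 0.470 and the 4 RFB ON libraries 0.291, 0.322, 0.323 and 0.364, all lower. Against 1 library such an order arises easily by chance. On the left flank, all 4 were also lower at sites 3 and 5 and all higher at site 2. In *rpn10Δ*, which lacks a proteasome subunit, all libraries are labelled RFB ON. The one with *rtf1* counts at 7.68% of WT RFB ON had 0.423, and those with *rtf1* counts near the WT level had 0.321 and 0.326. At site 1, the mutant Pol δ libraries with *rtf1* counts near the WT level thus lay below the mutant libraries without. Pol ε libraries of *rpn10Δ* did not move as WT did. Their step in Watson share across site 1 was 0.288 and 0.251 with and 0.169 without *rtf1* counts, whereas WT had 0.175 and 0.159 in RFB OFF and -0.00835 in RFB ON. Those with *rtf1* counts are the libraries whose genome-wide slope has the Pol δ sign. On the right of site 1, however, the *nup132Δ* RFB ON libraries were lower as well, between 0.655 and 0.708 against 0.760 in RFB OFF. Their step across the site, right minus left, differed from RFB OFF by 0.0681 on average (two-sided exact permutation p = 0.4).

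At site 3, the *nup132Δ* RFB OFF library had 0.603 and the RFB ON libraries 0.394, 0.453, 0.547 and 0.570, all lower and widely spread. The *rpn10Δ* library without *rtf1* counts had 0.535 and the others 0.382 and 0.428. At site 2 the strains differed. The *nup132Δ* RFB ON libraries had 0.215, 0.234, 0.293 and 0.324, all above the 0.205 of RFB OFF. The *rpn10Δ* libraries had 0.282 without and 0.185 and 0.206 with *rtf1* counts. In Pol ε, the *nup132Δ* RFB ON libraries had 0.369 to 0.480 there, above the 0.334 and 0.350 of WT RFB OFF. They also lay above both WT RFB OFF values at sites 1 and 3, and overlapped them at sites 4 and 5. No *nup132Δ* RFB OFF Pol ε library was deep enough to set against them. At site 4, the *nup132Δ* RFB ON Pol δ libraries had 0.365, 0.401, 0.446 and 0.505, on both sides of the 0.393 of RFB OFF. The *rpn10Δ* Pol δ libraries had 0.411 without and 0.332 and 0.393 with *rtf1* counts there. At site 5 they had 0.456 without and 0.436 and 0.466, on both sides of it, with *rtf1* counts. The step of the *nup132Δ* RFB ON Pol δ libraries differed from RFB OFF by -0.00205, 0.0915, 0.0492 and 0.0130 on average at sites 2 to 5. For *nup132Δ* RFB ON against OFF, the two-sided exact permutation p on the left flank was 0.2 at site 1, the smallest for 4 libraries against 1, and 0.4 at sites 2 and 3. Over both flanks of the 5 sites (10 comparisons), the lowest adjusted p was 0.571 (exact permutation test, Benjamini-Hochberg). The mutant libraries had a lower genome-wide strand asymmetry, with an SD of the Watson share of 0.132 to 0.180 in the *nup132Δ* RFB ON and 0.204 in the *nup132Δ* RFB OFF Pol δ libraries, and its part in these shares was not tested.

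**Figure D4:**
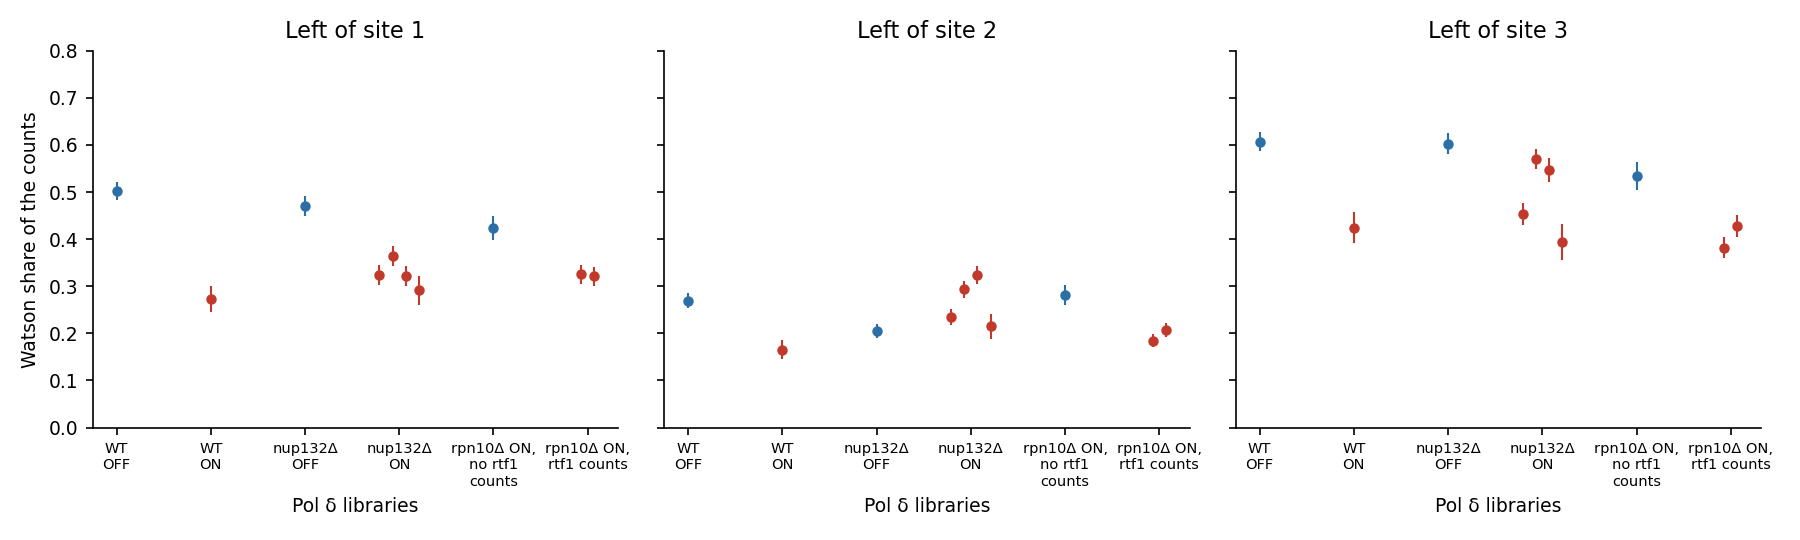
Watson share (0 to 1) of the counts in the 2.1 kb left of sites 1 to 3, 1 point per Pol δ library, grouped by strain; vertical lines are 95% normal intervals from counting error, red marks libraries with *rtf1* counts and blue those without. At site 1 the mutant libraries lie between 0.291 and 0.364 (red) and between 0.423 and 0.470 (blue). The WT libraries, with 0.273 in RFB ON and 0.502 in RFB OFF, were among those used to find the sites. The left flank was chosen after its values had been seen.

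Next to the region left out, little differed between RFB ON and OFF. In the 30 kb on its left, the mean share of rightward forks was 0.442 in RFB OFF and 0.428 in RFB ON, and the 9 windows differed by -0.0334 to 0.00563. In the 30 kb on its right, the means were 0.422 and 0.424, and the 9 windows differed by -0.0150 to 0.0307. No window passed 0.1 within 100 kb on either side. Beyond 30 kb, group means of the difference lay between -0.00907 and 0.0101, with SDs over windows of 0.0100 to 0.0183.

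The mating-type region, centromeres and chromosome ends held no window past 0.1, but the first of these and some ends spread more widely than the genome, where the SD of the difference was 0.0204. Around the mating-type genes, the 12 windows had an SD of 0.0275 and differed by -0.0615 to 0.0272. The RFB OFF replicates differed there by -0.00841 to 0.00680, and 2 of the 12 windows were called on at least 1 strand. *RTS1* natively lies there, but all strains carry RTS1::phleo, which is written like a disruption of it. Whether a native *RTS1* remained was not tested. In the 3 centromeres, windows differed by -0.0429 to 0.0370, and 3 of 16, 1 of 20 and 0 of 28 were called on at least 1 strand in centromeres I, II and III (13.3% over the genome). In the last 100 kb of the chromosome ends, the greatest differences were -0.0847, at the right end of chromosome II, and 0.0680, at the left end of chromosome III. The SD there was 0.0319 and 0.0196. The positions of mating-type genes and centromeres come from the reference, with a margin of 10 and 5 kb, because chromosomes II and III of the files are offset from it.

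Pol δ usage averaged over both strands, the Pol δ bias, would be 0.5 if the strands shared both polymerases evenly. It was 0.499 ± 0.0387 (SD over windows) in RFB OFF and 0.493 ± 0.0450 in RFB ON. The difference had a mean of -0.00625 and an SD of 0.0166. Falls past 0.05 outnumbered rises, with 44 windows against 10. Of the 10 rises, 7 lay in the end regions of chromosome III, which adjoin the ribosomal DNA. There the rise reached 0.115 (0.451 to 0.566 from 3001 to 6000), with counts of 30863 to 50934 per window in the RFB ON Pol δ library, far over the median. None of these 7 windows was called by the test. The largest fall was at 36001 to 39000 of chromosome II, from 0.450 to 0.309, and was called on both strands (log2 interactions of -0.94 and -0.76, edgeR adjusted p of 0.00130 and 0.00542).

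Copy number was compared because it could alter usage. Only 4 windows differed by over 1.5-fold in the same direction in both polymerases. One holds *rtf1*. The other 3 lie at 93001 to 102000 of chromosome II, where the middle window had 2.29 times the average coverage in the RFB OFF Pol δ library and 1.31 times in the RFB ON Pol δ library. It had 0.770 and 1.95 times in the RFB OFF Pol ε replicates and 0.767 times in RFB ON Pol ε. Coverage there thus differed between replicates of 1 genotype.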

How the data were processed

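The deposited files hold whole counts for each library, 1 file per strand, in bins of 300 bp and without normalization. Bowtie2 was the aligner, and the authors counted with a custom Perl script. The genome build is not given in the sources used here. By lagged correlation of counts with GC content, chromosome I matched ASM294v3 to within 0.025 kb, as did chromosome II left of the inserted barrier. Genes and sequences are therefore named only there. Strain labels gave the groups. A total of 3 libraries with under 10 counts per bin were left out. The members, lists and site search were chosen with earlier results of these data known.

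Counts were scaled to the library total and averaged per polymerase. Pol δ usage is Pol δ over the sum of both. Depth is the total counts per library, and counting errors came from the delta method, which covers counting error only. Window-strands of 3 kb went into edgeR 4.0.16 where their counts averaged 10 or more (TMM, quasi-likelihood, 1 residual degree of freedom). DESeq2 1.42.0 was an alternative. On simulated data, the window test recovered 200 of 200 windows with a log2 change of 1 among 8332, with 6 false calls. Those counts had the same means in both polymerases and 1 preset dispersion for all window-strands. They therefore check the computation and do not give the power or the rate of false calls in the real data. In a separate simulation, the fork direction of 9 windows set to change by 0.15 was recovered as 0.151. Origins were at least 20 bins apart. Single values were tested by exact permutation of labels within each polymerase. Windows were named by rule: the 5 with the greatest change in each direction, for fork direction and, among windows past the threshold, for the log2 interaction, and for origins the 10 most efficient and the 5 greatest gains and losses. Alternatives covered scaling, filter, window size, flanks, thresholds, smoothing, replicates and libraries in the fit. Python 3.11.15, numpy 2.4.6, pandas 2.3.3, scipy 1.17.1, matplotlib 3.10.9 and R 4.3.3 were used.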

Additional observations from a re-analysis of the deposited data

Results flagged for a closer look

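A library labelled WT RFB OFF Pol δ that was too shallow to use (7167 counts) had the strand pattern of the other polymerase. The slope of its Watson share on the RFB OFF share of rightward forks was 0.538 (95% interval 0.484 to 0.591 from counting error), whereas the deep WT RFB OFF Pol δ library had -0.978 and the RFB OFF Pol ε libraries had 1.04 and 1.04. The shallow WT RFB ON Pol δ library (3167 counts) had -0.844, the sign of its label. Neither took part in the values of the report, except where shallow libraries are named.

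In *nup132Δ* Pol δ libraries, which the comparison of WT strains did not use, the Watson share on the left flank was lower in all 4 RFB ON libraries than in the RFB OFF library at sites 1, 3 and 5, with mean differences of -0.145, -0.112 and -0.0515. It went the other way at site 2, where 0 of 4 were lower (mean difference 0.0614), and at site 4, where 1 of 4 was lower (0.0357). The left flank was chosen for this reading after its values had been seen. With 1 RFB OFF library the smallest exact permutation p is 0.2, and the p-values were 0.2, 0.4 and 0.4.

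On the right of site 4, 1 of the 4 *nup132Δ* RFB ON Pol δ libraries had a Watson share of 0.579, far from the 0.440 to 0.460 of the other 3. Of 20 sets of 4 libraries examined in this way, chance is expected to mark about 1.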

How the results depend on the processing

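The count of windows called between RFB ON and OFF depended on the fit. It was 602 in the fit of 5 libraries, 0 with all 20 libraries in the fit (whose *rpn10Δ* groups mix libraries with and without *rtf1* counts and, for Pol ε, of opposite strand slope), 88 with the shallow libraries included, 11 by DESeq2's test and 917 of 27778 window-strands of 0.9 kb. Leaving out either RFB OFF Pol ε replicate from the fit of 20 libraries, chosen after seeing the data, gave 0 and 0 (11 and 22 at an unadjusted p under 0.05). The fit of 5 libraries without one of them has no residual degree of freedom and gives no test. The search for sites and its settings were also chosen after seeing the data. The share of windows past 0.1 was 0.302% with windows of 0.9 kb and lay between 0.168% and 0.192% without each replicate. The slope was 1.0363 with windows of 0.9 kb, 1.0456 with 9 kb, and 1.0404 to 1.0428 without each replicate. The median difference in origin efficiency was 0.0180 with origins called on RFB OFF alone, 0.0260 with origins called on the *nup132Δ* RFB ON libraries, 0.0254 at a threshold of 0.25, 0.0176 with flanks of 5 bins and 0.000463 with RFB ON rescaled by the genome-wide line, and 0.0192 to 0.0229 without each replicate. The median shift of merging points was 0.00460 kb with smoothing over 5 bins and 0.0176 to 0.0212 kb without each replicate. Sites with a fall in RFB ON alone, 5 in the report, numbered 14 with flanks of 5 bins, and 7 and 9 without RFB OFF Pol ε replicate 1 and 2. Sites 1 to 3 were among them in each of the 4 settings tried. Counts of origins moved by less than 1.5 times in all settings, and no result changed its direction. No paired analysis was possible because the labels give the Pol δ and Pol ε strains no shared replicate numbers between RFB ON and OFF.

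RFB ON had 1 library per polymerase, and the Pol δ one was the shallowest of the 5, so differences carry no replicate check on that side. At about 1391 counts per window, differences in fork direction smaller than about 3 counting errors (median 0.00852) were not detectable in a single window.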
